A study of Mus musculus with 14 samples.

Results

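Retinal ganglion cell genes were examined in the list of H3K27ac ChIP-Seq peaks of the embryonic day 14 (E14) mouse retina. The set held 10 of the 22367 protein-coding genes of the GENCODE vM1 annotation on mm9, chosen by name: the POU-homeodomain factors Pou4f1, Pou4f2 and Pou4f3, the LIM-homeodomain factors Isl1 and Isl2, the early B cell factors Ebf1 and Ebf3, the RNA-binding protein gene Elavl4, and the growth-cone and cytoskeletal genes Gap43 and Stmn2. A peak belonged to a gene when it overlapped, by at least 1 bp, the gene body extended by 50 kb on either side, and 12 of the 13463 peaks did so. A peak that covered the first base of an annotated transcript of the gene is called its transcription start site (TSS) peak, and a peak that covered no annotated TSS of any gene is called distal.

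The study profiled open chromatin, transcripts and histone acetylation in mice at E14 and at postnatal day 2, in 14 samples. Samples with loss of the LIM-homeodomain factor Lhx2 are listed for open chromatin and transcripts only. Of the 14 samples, the E14 H3K27ac sample was used, and the other 13 were not analysed here. For this sample, chromatin was immunoprecipitated with a rabbit antibody to H3K27ac in 2 replicates, which were pooled before peaks were called against 1 isotype control library. The label gives the cell type as retinal progenitor cells, whereas the methods describe whole dissected retinas, and neither a genotype beyond the CD1 strain nor a treatment is given for it. After filtering, 113543038 ChIP tags and 9210563 control tags were kept. Because the list is pooled, no peak has a replicate error, and no difference below was tested. The tags behind each of the 12 peaks, estimated from its pileup and length, numbered between 88.9 and 1228, which gives a counting error of between 10.6% and 2.85% of the pileup. In the check of the tissue, 11 of 12 retinal progenitor genes had a TSS peak, and Notch1 did not. None was found at 5 pigment epithelium genes (Rpe65, Tyr, Tyrp1, Dct and Mitf), 4 lens genes (Cryaa, Cryab, Cryba1 and Mip), 3 microglia genes (Cx3cr1, Csf1r and Aif1) or 3 muscle genes (Myod1, Myf5 and Ckm). Of 4 endothelium genes Kdr had one, and Pecam1, Cdh5 and Tek had none. A CpG-rich TSS, as defined below, was present at 7 progenitor genes, 1 pigment epithelium gene and 1 endothelium gene. No lens, microglia or muscle gene had one. Over all genes a TSS peak was found at 79.9% of those with a CpG-rich TSS and at 15.5% of the others. The check therefore does not separate tissue from TSS composition.

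Retinal ganglion cells are the output neurons of the retina and the first neurons that its progenitors produce, and their axons form the optic nerve. In these cells the basic helix-loop-helix factor ATOH7 acts upstream of POU4F2 and ISL1, which together switch on genes for differentiation and axon growth. Acetylation of lysine 27 of histone H3 is deposited by the acetyltransferases CBP and p300 and marks active promoters, where it often spreads downstream of the TSS, and active enhancers. In a whole retina, the input that the methods but not the label describe, the mark is averaged over progenitors and postmitotic neurons. Few ganglion cells and little acetylation per cell then cannot be told apart.

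A TSS peak was found at 4 of the 10 genes, namely Pou4f2, Isl1, Ebf3 and Elavl4, and 44.2% of all protein-coding genes had one. When a peak within 1 kb of a TSS was counted as well, Stmn2 was added and the count became 5, against 49.8% of all genes. At least 1 peak lay in the extended gene body of 7 of the 10 genes, and the same was true of 72.1% of all genes. Pou4f1, Pou4f3 and Ebf1 had none. A distal peak was found for Pou4f2, Ebf3, Gap43 and Stmn2, which is 4 of 10 genes against 29.9% of all genes. The shares for TSS peaks and for any peak were thus close to those of all genes, and that for distal peaks rested on 4 genes. The 12 peaks comprised 5 TSS peaks, 6 distal peaks and 1 peak over the TSS of a neighbouring gene.

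**Figure D1:**
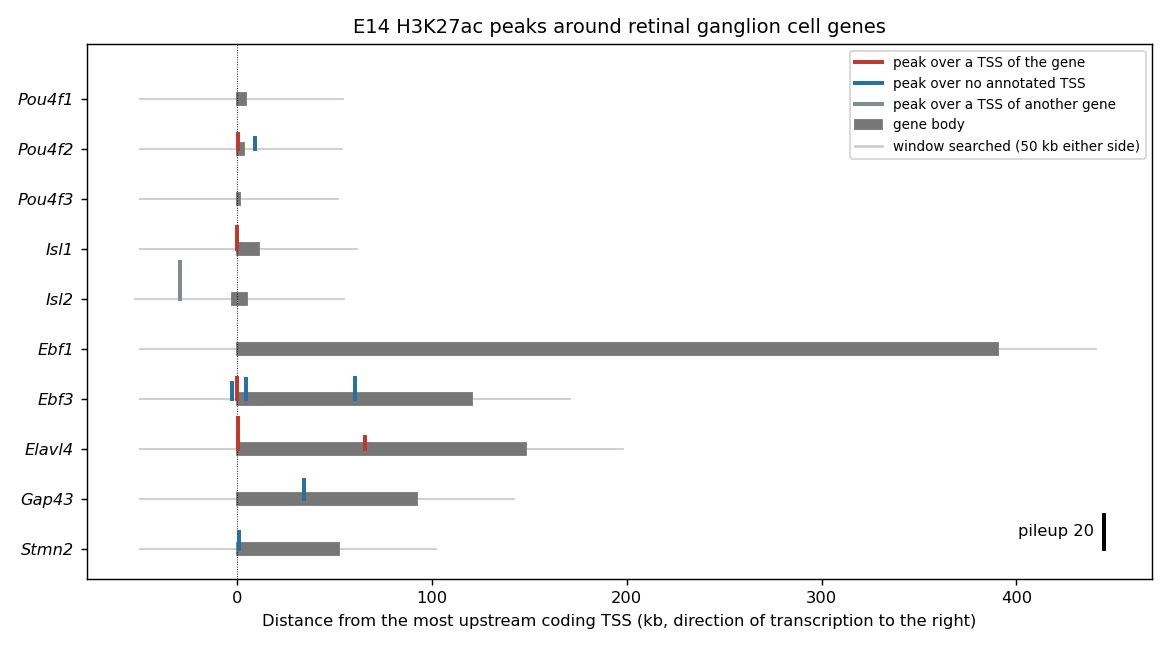
H3K27ac peaks around the 10 retinal ganglion cell genes, plotted as distance in kb from the most upstream coding TSS with transcription to the right. Grey bars are gene bodies, thin lines the extended windows, and vertical ticks the 12 peaks, each as tall as its mean pileup (scale bar, 20), in red over a TSS of the gene, in blue over no annotated TSS and in grey over a TSS of another gene. The windows of Pou4f1, Pou4f3 and Ebf1 hold no tick, and that of Ebf3 holds 4.

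To show what the promoters with and without the mark look like, the 200 bases upstream of the most upstream coding TSS are printed for 6 genes, 5′ to 3′ on the strand of the gene, from mm9. Ebf3 (chr7:144506129-144506328, minus strand) had the longest TSS peak and Elavl4 (chr4:110024515-110024714, minus strand) the one with the highest pileup. Pou4f1 (chr14:104867217-104867416, minus strand), Isl2 (chr9:55388755-55388954, plus strand), Ebf1 (chr11:44430619-44430818, plus strand) and Gap43 (chr16:42340765-42340964, minus strand) had no TSS peak. Capitals mark matches to the letters CCAAT (read as ATTGG on the other strand), CAGCTG (an E-box) and CCCNNGGG (the core of the site bound by EBF proteins).
Ebf3: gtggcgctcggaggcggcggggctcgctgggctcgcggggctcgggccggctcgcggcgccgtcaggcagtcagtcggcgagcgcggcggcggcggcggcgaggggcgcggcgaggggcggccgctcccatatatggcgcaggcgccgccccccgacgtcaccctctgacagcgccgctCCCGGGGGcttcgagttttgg
Elavl4: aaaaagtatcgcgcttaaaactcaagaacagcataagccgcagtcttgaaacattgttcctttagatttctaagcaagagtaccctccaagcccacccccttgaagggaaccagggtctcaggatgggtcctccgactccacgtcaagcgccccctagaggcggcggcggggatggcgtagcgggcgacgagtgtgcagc
Pou4f1: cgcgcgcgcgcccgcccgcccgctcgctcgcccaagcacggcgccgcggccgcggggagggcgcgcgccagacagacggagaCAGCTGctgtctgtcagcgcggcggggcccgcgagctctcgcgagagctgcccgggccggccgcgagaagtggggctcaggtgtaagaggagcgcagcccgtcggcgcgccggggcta
Isl2: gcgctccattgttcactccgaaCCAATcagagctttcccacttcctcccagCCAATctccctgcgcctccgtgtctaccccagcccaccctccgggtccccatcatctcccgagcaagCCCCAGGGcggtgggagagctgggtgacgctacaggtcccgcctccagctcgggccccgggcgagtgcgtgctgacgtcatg
Ebf1: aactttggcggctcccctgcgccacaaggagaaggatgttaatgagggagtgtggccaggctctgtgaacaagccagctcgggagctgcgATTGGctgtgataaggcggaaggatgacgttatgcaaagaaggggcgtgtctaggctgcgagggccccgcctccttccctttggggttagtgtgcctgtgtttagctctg
Gap43: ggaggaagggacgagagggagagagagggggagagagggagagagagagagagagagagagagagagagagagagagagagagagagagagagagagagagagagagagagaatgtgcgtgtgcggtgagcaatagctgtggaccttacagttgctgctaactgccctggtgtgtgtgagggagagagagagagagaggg

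The upstream window of Ebf3 has a GC content of 80% and lay inside the TSS peak, whereas that of Pou4f1, with 79.5%, lay in no peak. The corresponding values are 66.5% for Isl2, 58% for Ebf1, 56% for Elavl4 and 55.5% for Gap43, and the median over 22362 promoters is 55.5%. Of the Elavl4 window, only the 105 bases nearest the TSS lay in its 5′ peak. The Gap43 window contains a long run of alternating G and A. Searched on both strands, CCAAT was found upstream of 4 of the 10 genes (Isl1, Isl2, Ebf1 and Stmn2) and of 30.6% of all promoters, and CAGCTG upstream of Pou4f1 and Isl1 and of 9.55%. The EBF core CCCNNGGG was present upstream of Isl2 and Ebf3 and of 11.1% of all promoters, and the homeodomain letters TAATTA upstream of Stmn2 and of 3.43%. Neither TATAAA, found in 10% of promoters, nor the POU4F letters ATAATTAAT, which contain TAATTA and were found in 0.17%, occurred in these 200 bases of any of the 10 genes. Such matches describe the letters in the window and not sites of binding.

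Among the POU4F factors, which specify ganglion cells and sensory neurons and keep them alive, only Pou4f2 had a called peak in its window, and with a q of at most 0.01 none of the 3 genes had one. Pou4f2 (ENSMUSG00000031688.1, chr8:80956908-80960551, minus strand) is the family member that ganglion cells express first. Its TSS peak (chr8:80958811-80960999) was 2189 bp long and ran from 448 bp before the TSS to 1740 bp past it, so that 79.5% of it lay in the gene. The mean pileup, the number of extended ChIP fragments over a position after scaling to the control library, was 8.69, and the fold enrichment over the local control background was 3.49 (q = 0.0143). By length this peak ranked 974 of 13463, and by pileup 12177. It was thus among the longer and, at the same time, the lower peaks of the retina. A second Pou4f2 peak (chr8:80951291-80951634), intergenic and 5274 bp beyond the 3′ end of the gene, measured 344 bp with a pileup of 6.56 and a fold enrichment of 3.66 (q = 0.0274). Its rank of 13341 by pileup was the lowest of the 12 peaks.

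Pou4f1 (ENSMUSG00000048349.6, chr14:104862737-104867216, minus strand) and Pou4f3 (ENSMUSG00000024497.2, chr18:42554251-42555747, plus strand), the paralogues that follow Pou4f2 in subsets of ganglion cells, had no peak within 50 kb. The nearest peak to Pou4f1 lay 53.9 kb away over the TSS of Rnf219, with a length of 815 bp and a pileup of 21.5. For Pou4f3 the nearest was 71.4 kb from the gene, covered no annotated TSS, and had a length of 347 bp and a pileup of 8.8. Among all protein-coding genes, 27.9% likewise had no peak in their window.

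The paired LIM-homeodomain genes also differed in the list. Isl1 (ENSMUSG00000042258.5, chr13:117088478-117099896, minus strand), the partner of POU4F2 in early ganglion cells, had 1 peak (chr13:117099538-117100691) of 1154 bp. It began 795 bp before the TSS, ended 358 bp past it and was the only TSS peak of the set with most of its length upstream. Its pileup was 12.85 and its fold enrichment 4.74 (q = 1.25e-05), with ranks of 5515 by length, 8846 by pileup and 5486 by fold enrichment. Isl2 (ENSMUSG00000032318.5, chr9:55386479-55393987, plus strand), which marks ganglion cells with crossing axons, had no peak over any of its 4 annotated TSSs. The peak in its window (chr9:55359331-55359940, 610 bp, pileup 22.38, fold enrichment 4.89, q = 9.65e-09) covered the TSS of Etfa, a mitochondrial electron-transfer gene, 29.0 kb upstream of the Isl2 coding TSS. It had the highest pileup of the 12 peaks, and it was also the peak closest to the edge of a window that was still counted, at 26.5 kb from the gene. Just outside the limit of 50 kb were a peak 51.2 kb from Elavl4 and the Rnf219 peak near Pou4f1.

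The EBF genes encode helix-loop-helix factors that act in ganglion cell differentiation downstream of POU4F2, and they stood at opposite ends of the set. Ebf3 (ENSMUSG00000010476.6, chr7:144385356-144506128, minus strand) had 4 peaks with a summed length of 4895 bp over 63.9 kb, the most of any of the 10 genes. The TSS peak (chr7:144504824-144507306) covered 2483 bp, of which 1178 bp lay upstream, with a pileup of 12.56 and a fold enrichment of 4.17 (q = 0.000208). It ranked 665 by length and 9112 by pileup and contained the GC-rich upstream sequence printed above. A short peak of 344 bp (chr7:144508767-144509110) reached 2982 bp upstream, apart from the TSS peak, with a pileup of 9.33. An intronic peak of 1351 bp (chr7:144500977-144502327) began 3801 bp downstream with a pileup of 11.96, and a further intronic peak of 717 bp (chr7:144445176-144445892) lay 60.2 kb downstream with a pileup of 12.39. Fold enrichments of these distal peaks were between 3.21 and 3.52, all below that of the TSS peak. No TSS of another protein-coding gene lies in this window. At least 3 distal peaks were present for 2.62% of all genes, and for 5.71% of the 1874 genes whose window was as long as that of Ebf3 or longer.

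The central 200 bases of the longer intronic Ebf3 peak (chr7:144501553-144501752, plus strand, mm9) are shown because they hold CCCNNGGG, the core of the site of the EBF proteins themselves, at both stretches in capitals. They were chosen after their letters had been seen, and 13.7% of the central windows of the 4120 distal peaks contain such a match.
Ebf3: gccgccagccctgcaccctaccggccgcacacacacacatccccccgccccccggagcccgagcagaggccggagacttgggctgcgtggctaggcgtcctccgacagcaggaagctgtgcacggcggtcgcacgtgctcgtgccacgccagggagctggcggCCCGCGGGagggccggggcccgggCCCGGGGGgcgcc

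Ebf1 (ENSMUSG00000057098.7, chr11:44430819-44821593, plus strand) is the longest gene of the set at 391 kb, and no peak overlapped its 491 kb window. The nearest, over the TSS of Rnf145, was 96.9 kb away with a length of 1556 bp and a pileup of 20.76. Of the 336 genes with windows at least as long, 23.8% had no peak. As shown by the sequence above, its promoter holds 1 CCAAT match, on the minus strand, and the 500 bases on either side of the TSS fell short of the threshold for a CpG-rich promoter given below.

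Elavl4 (ENSMUSG00000028546.11, chr4:109876327-110024514, minus strand) encodes HuD, a neuronal RNA-binding protein that stabilises transcripts for neurite growth, and it was the only gene of the set with more than 1 TSS peak, as were 1.49% of all genes. The 5′ peak (chr4:110023622-110024619) was 998 bp long and extended 892 bp into the gene but only 105 bp upstream. With a pileup of 18.69 and a fold enrichment of 9.43 (q = 4.64e-15), it ranked 3195 by pileup and 32 by fold enrichment among the 13463 peaks. The Etfa peak came next among the 12, at 4.89. The internal peak (chr4:109958245-109959872) lay 63.8 kb further into the gene over 2 alternative TSSs and was longer and lower, at 1628 bp with a pileup of 7.1 and a fold enrichment of 3.51 (q = 0.0293). Its sequence also differed, with a GC content of 44.7% against 62.4% for the 5′ peak. The local background implied by pileup and fold enrichment was 1.09 at the 5′ peak, close to the genome-wide floor of 1.07 below which the caller does not go, and the median over all peaks was 2.36. The floor follows from the genome size given to the caller. With the higher floor of a mouse genome size, an alternative chosen after seeing the data, the fold enrichment became 7.75 and its rank 227.

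Gap43 and Stmn2 encode proteins of the growing axon, GAP43 acting at the growth-cone membrane and STMN2 on microtubules, and neither had a TSS peak. For Gap43 (ENSMUSG00000047261.9, chr16:42248555-42340764, minus strand) the only peak (chr16:42306053-42306916) was intronic, 33.8 kb downstream of the TSS. It measured 864 bp with a pileup of 11.15 and a fold enrichment of 3.36 (q = 0.00893). The central 200 bases of this peak (chr16:42306385-42306584, plus strand, mm9), chosen after being seen, are printed to be set beside the Gap43 promoter above, since both contain a long run of GAGAGAGA, letters found in 3.01% of distal windows and 2.71% of promoters. The part of this repeat in the peak was not tested.
Gap43: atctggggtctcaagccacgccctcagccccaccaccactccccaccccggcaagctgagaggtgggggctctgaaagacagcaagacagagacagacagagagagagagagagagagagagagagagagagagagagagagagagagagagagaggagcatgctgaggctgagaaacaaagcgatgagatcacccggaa

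At Stmn2 (ENSMUSG00000027500.8, chr3:8509527-8561604, plus strand) the peak (chr3:8509664-8511458) began 137 bp past the only annotated TSS and ended 1931 bp past it. It was 1795 bp long, rank 1828, with a pileup of 10.05, rank 11189, and a fold enrichment of 3.57 (q = 0.007). This was the longest of the 6 distal peaks, and its class depended on whether a peak must cover the TSS itself.

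**Figure D2:**
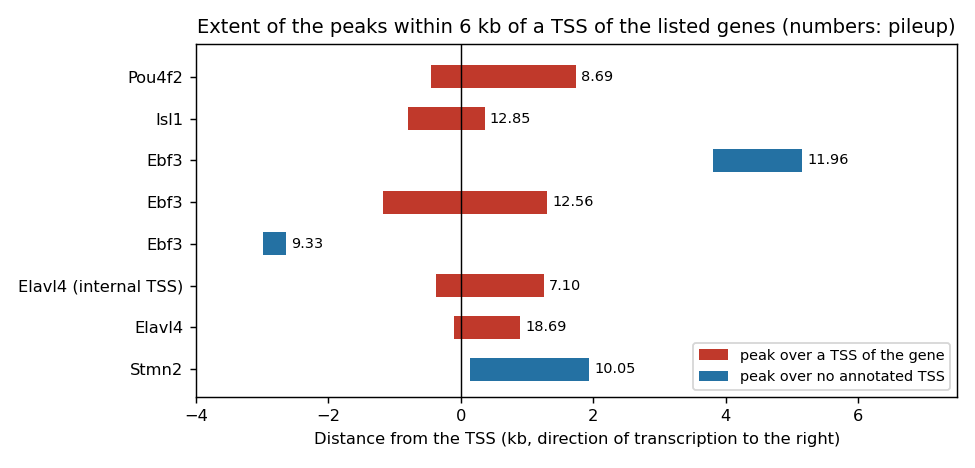
Extent of the peaks at and near the TSSs of the ganglion cell genes, in kb from the TSS with transcription to the right and the mean pileup of each peak beside its bar. Red bars cover a TSS of the gene and blue bars cover none. The Pou4f2 and both Elavl4 peaks extend mainly downstream, the Isl1 peak mainly upstream, the Ebf3 TSS peak about equally, and the Stmn2 peak begins 0.137 kb past the TSS.

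Set against peaks of the same kind, most TSS peaks of these genes were long and low, but the length rested on the weaker calls. Their lengths had a median of 1628 bp (range 998 to 2483, n = 5 peaks), and the median over the 9095 peaks at protein-coding TSSs was 1148 bp. The median pileup was 12.56 (range 7.1 to 18.69) against 16.63, and the median fold enrichment 4.17 (range 3.49 to 9.43) against 4.83. The peaks of Pou4f2, Isl1 and Ebf3 and the internal peak of Elavl4 were each longer and lower in pileup than these medians, that is 4 of 5, as were 1815 of the 9095 peaks. Isl1, at 1154 bp, lay just above the median length. The 5′ peak of Elavl4 was the exception on both measures. Limits of 4 or more in fold enrichment and 0.001 or less in q left Isl1, Ebf3 and the 5′ Elavl4 peak. Their median length was 1154 bp, close to the 1148 bp over all TSS peaks without these limits, and their median pileup was 12.85. The distal peaks had a median length of 790.5 bp and a median pileup of 10.6 (n = 6 peaks), against 687 bp and 10.77 over all 4120 distal peaks, and all 6 lay below the distal median fold enrichment of 3.84, with a range of 3.21 to 3.66.

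**Figure D3:**
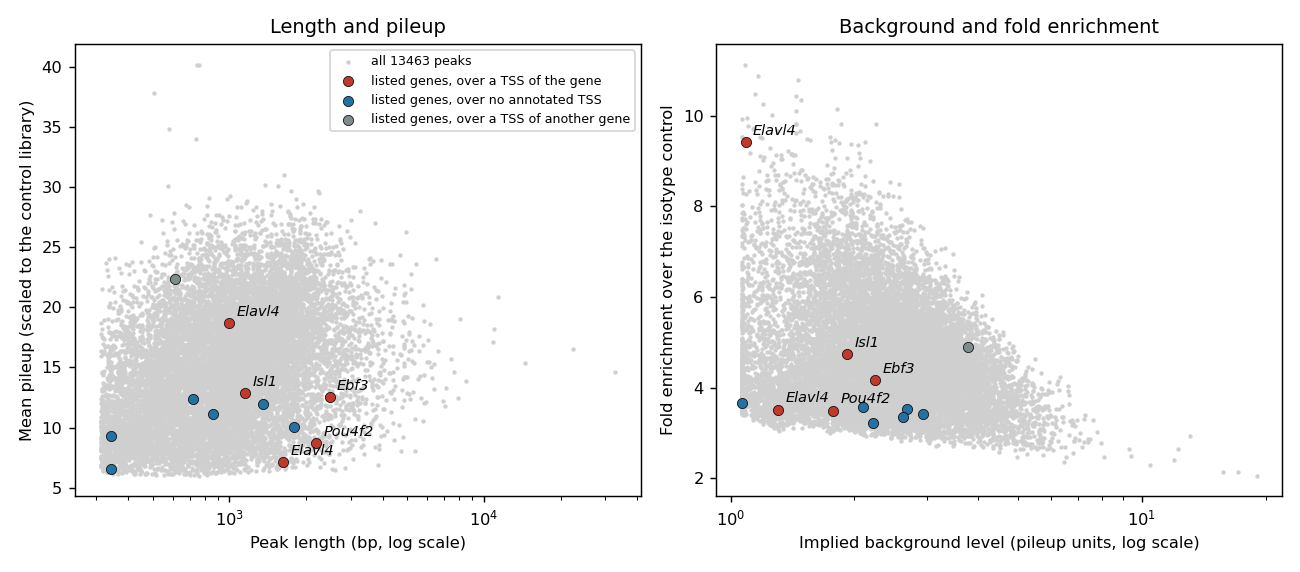
Left, mean pileup against peak length (bp, log axis) and right, fold enrichment against the background implied by pileup and fold enrichment (log axis), for all 13463 peaks in light grey and the 12 peaks of the ganglion cell windows in colour, with the gene named at TSS peaks. Of the 12, only the 5′ Elavl4 peak (18.69) and the Etfa peak (22.38) lie above the median pileup of 15.06, and the 5′ Elavl4 peak stands at a fold enrichment of 9.43 near the left edge.

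Over all 12 peaks, 10 had a pileup below the median of the whole list (15.06), and 3 were below its 10th percentile of 8.77. The q-value was above 0.01 for 4 of the 12, both Pou4f2 peaks, the upstream Ebf3 peak and the internal Elavl4 peak, against 11.4% of all peaks. Limits of 4 or more in fold enrichment and of 0.001 or less in q were met by 4 of the 12, the TSS peaks of Isl1 and Ebf3, the 5′ peak of Elavl4 and the Etfa peak. Of all peaks 64.1% met both limits, of TSS peaks 77.5% and of distal peaks 34.6%. Under these limits no flanking peak of a ganglion cell gene was kept other than that of Etfa. The part of the window covered by peaks was highest for Pou4f2 (2.44%) and Ebf3 (2.22%), followed by Stmn2 (1.18%), and the median was 0.802% over the 10 genes and 1.08% over all genes.

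Sequence composition at the TSS sorted the genes with the mark from those without it in part. With a CpG-rich TSS defined as a GC content of at least 50% and an observed-to-expected CpG ratio of at least 0.6 in the 500 bases on either side, 7 of the 10 genes qualified. The 4 genes with a TSS peak were all among them (Pou4f2, Isl1, Ebf3 and Elavl4), and so were Pou4f1, Pou4f3 and Isl2 without one. The ratio was 1.02 at Pou4f1, second to the 1.05 at Ebf3, so that the promoter closest to Ebf3 in composition had no peak. Ebf1, Gap43 and Stmn2, with ratios of 0.492, 0.358 and 0.333, were not CpG-rich and had no TSS peak. Among all genes a TSS peak was found at 79.9% of the 9969 with a CpG-rich TSS and at 15.5% of the other 12398. Against these shares stand 4 of the 7 CpG-rich genes of the set and none of the other 3. The part of composition in the pattern among the 10 genes was not tested.

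Genes of related function were then counted in the same way, with the longest TSS peak taken for each gene. For Elavl4 this rule took the internal peak (1628 bp, pileup 7.1) and left out the 5′ peak (998 bp, pileup 18.69). Of 34 other ganglion cell genes, from Atoh7 to neurofilament and axon guidance genes, 16 (47.1%) had a TSS peak. Their median length was 2236 bp and median pileup 14.7, and the ganglion cell genes of the set gave 1908 bp and 10.6 (n = 4 genes). Sox11, a SOX factor needed for ganglion cell formation, had the longest at 5750 bp, and Satb1, a chromatin organiser, the highest pileup at 22.95. Atoh7, upstream of most of the set, had a TSS peak of 1088 bp with a pileup of 15.04. Among the paralogues of the 10 genes, 4 of 8 had a TSS peak, Ebf4 (1378 bp, pileup 15.07), Elavl1 (1921 bp, 19.43), Stmn1 (1903 bp, 18.81) and Stmn4 (1536 bp, 8.69), and Ebf2, Elavl2, Elavl3 and Stmn3 had none. The Elavl1 peak also covered a TSS of Ccl25, and the Stmn1 peak one of AL669982.1, so these values do not belong to the paralogue alone.

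For the fates that arise beside ganglion cells, 6 of 12 horizontal and amacrine genes had a TSS peak, led by Onecut2 in length (3970 bp) and Prox1 in pileup (15.26), and Onecut1, Onecut2 and Barhl2 also stand in the ganglion cell list. Of 9 photoreceptor genes, Otx2 (2411 bp, pileup 11.14) and Thrb (2006 bp, 13.98) had one. The 11 progenitor genes with a TSS peak had a median length of 4842 bp, with Pax6 the longest at 32865 bp and Six6 the highest in pileup at 20.15. The Pax6 peak also covered a TSS of Pax6os1, the Six6 peak one of 4930447C04Rik and the Prox1 peak one of Gm17566. The shortest progenitor peak, at Six6, was 2395 bp long. Among the 4 genes of the set with a TSS peak only Ebf3, at 2483 bp, exceeded it, whereas in the list of other ganglion cell genes Sox11 and Onecut2, among others, did as well. In pileup the ranges overlapped, at 7.1 to 12.85 for the longest peaks of the ganglion cell genes and 12.28 to 20.15 for the progenitor genes. The former range leaves out the 5′ Elavl4 peak, which is not the longest of its gene and had a pileup of 18.69. Peaks both longer and lower in pileup than the TSS-peak medians were found at 9 of these 11 progenitor genes, at 6 of the 6 horizontal and amacrine genes, 2 of the 2 photoreceptor genes, 2 of the 4 paralogues and 7 of the 16 other ganglion cell genes with a TSS peak, and at Kdr (1652 bp, pileup 11.4), beside 1815 of all 9095 TSS peaks.

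**Figure D4:**
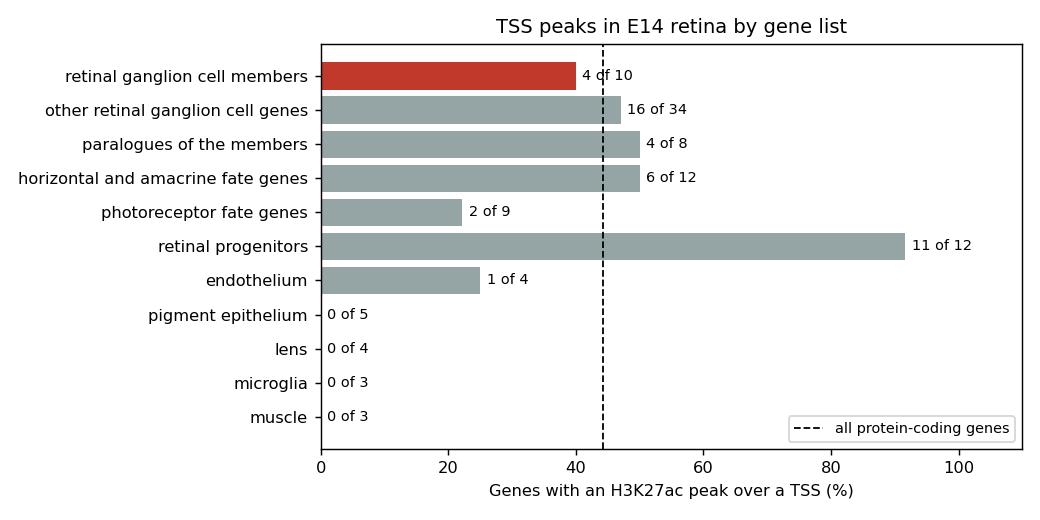
Share of genes (%) with an H3K27ac peak over an annotated TSS in each gene list, with the number of genes beside each bar and the share of all protein-coding genes (44.2%) as a dashed line. The 10 ganglion cell genes (red, 4 of 10) and the 34 others (16 of 34) lie near the line, the progenitor genes (11 of 12) far above it and the lists of other tissues below it.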

How the data were processed

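The E14 H3K27ac sample was used. The authors aligned reads to mm9 with Bowtie2, pooled 2 ChIP replicates and called broad peaks against 1 isotype control with MACS 2.1.0.20140616 (broad cutoff 0.1, q cutoff 0.05, fragment length 313 bp). Per the file headers, 113543038 ChIP and 9210563 control tags were kept, a ratio of 12.3, and the effective genome size was set to 2.7 Gb, larger than the 1.87 Gb default for mouse. The authors' pileup signal is the mean coverage of each peak after scaling to the control. The deposited fold enrichment is a ratio to the local background, and the deposited −log10 p and −log10 q values are means over the peak. No value per replicate was used, so precision beyond counting error is unknown. The shallow control makes low backgrounds coarse.

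Peaks were joined to GENCODE vM1 genes by an overlap of at least 1 bp, in Python 3.11.15 with pandas 2.3.3, numpy 2.4.6, pysam 0.24.0 and matplotlib 3.10.9, and the join was tested on simulated data. The background of a peak was taken as (pileup + 1) / fold − 1. Ranks run from the highest value. No test was run, since there is 1 pooled list. A list of blood genes is not reported here. Counts and medians are given beside those over all protein-coding genes or peaks. The genes and all lists were chosen with earlier results of these data known. All 10 genes are named with their peaks. In the other lists the longest and highest TSS peaks, all paralogues, and the genes with or without a TSS peak where 5 or fewer of a list fell on that side, are named, and Atoh7 was added after its values were seen. Sequences follow a rule of longest peak, highest pileup and first genes without a TSS peak, up to 6, with none from the chromosome of Pou4f3, so that Pou4f3 was passed over and Gap43 came in. Alternatives were the TSS distance and choice, a window of 10 or 100 kb, limits on fold enrichment and q, joining of peaks less than 1 kb apart, and ranking among TSS peaks.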

Additional observations from a re-analysis of the deposited data

How the results depend on the processing

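Of 18 alternatives, 15 gave values within 1.5 times those reported, among them the number of ganglion cell genes with a TSS peak, which was between 3 and 5 against 4, and the share of all genes with one, between 35.0% and 49.8% against 44.2%. The number of peaks in the windows other than the genes' own TSS peaks was 7, and it became 14 with windows extended by 100 kb, which search more sequence, and 1 under limits of 4 on fold enrichment and 0.001 on q, which keeps fewer peaks. The median pileup percentile of the TSS peaks was 32.2 among all peaks and 16.6 among TSS peaks, which are higher than distal ones. With the background floor of a mouse genome size, chosen after seeing the data, the 5′ Elavl4 peak had a fold enrichment of 7.75 in place of 9.43. No paired analysis was possible because the peak list is pooled and no test was run. The depth of the control limits the fold enrichment of peaks with a background near the floor. The absence of a peak says only that none was called at this depth in this sample.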

Other observations

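Stmn2 was not alone among ganglion cell genes in having a peak beside, and not over, its TSS. Of the 34 other ganglion cell genes, 21 had a peak within 1 kb of a TSS and 16 had one over it, and over all protein-coding genes these shares were 49.8% and 44.2%. The 5 genes that this distance added were Nefl and Nefm, the neighbouring genes of the light and medium neurofilament chains, Ina, which encodes a further neuronal intermediate filament, the netrin receptor gene Dcc and the helix-loop-helix factor gene Nhlh2. Elavl2 and Elavl3, the neuronal paralogues of Elavl4, were added among the paralogues, which brought their count from 4 to 6 of 8. The same distance added Notch1 among the progenitor genes, Bhlhe22 among the horizontal and amacrine genes and Rorb among the photoreceptor genes. These genes were named after their values had been seen.

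Beyond the 50 kb limit the next peaks differed in kind. The peak nearest to Pou4f2 outside its window lay 71.4 kb away over the TSSs of Rbmxrt and Slc10a7, with a pileup of 21.88. Outside the Gap43 window the next lay 57.6 kb away and covered no annotated TSS, with a length of 437 bp and a pileup of 21.41. The peak 51.2 kb from Elavl4 also covered no annotated TSS, and its pileup was 7.61.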
